A study of Homo sapiens with 18 samples.

Results

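The 10 genes described here encode enzymes that build, cap or trim the sugar chains of proteins. They were chosen by name for their place in glycosylation and their known link to androgen, with earlier results of these data known. Each symbol matched 1 of the 60675 genes counted. UAP1 and PGM3 make the sugar donor UDP-GlcNAc. GALNT7 adds an early sugar of mucin-type O-glycans, and GCNT1 and GCNT2 add branches. ST6GALNAC1 and ST6GAL1 add sialic acid caps. CSGALNACT1 starts the chondroitin sulfate chain. TUSC3 is a subunit of the complex that attaches N-glycans, and EDEM3 trims mannose from misfolded glycoproteins.

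RNA Seq read the transcripts of LNCaP cells, an androgen-dependent prostate cancer line, and of C4-2 cells, the castration-resistant line derived from it. Each line had 3 groups of 3 libraries, kept in medium with charcoal-stripped serum: scrambled siRNA (siScr) with vehicle (DMSO), siScr with the synthetic androgen R1881 at 1 nM, and R1881 at 1 nM together with siRNA pools that target KDM1A and KDM7A at once. All 18 libraries came from transfected cells, and treatment lasted 72 h. Knockdown with vehicle was not analysed here, so a knockdown effect could be read with androgen only. KDM1A and KDM7A are lysine demethylases of histones, and the comparisons asked how androgen, the dual knockdown and the change of line affect transcript levels. Each line is 1 established culture, and the sources name 3 siRNA samples per group without saying whether they came from separate cultures, so p-values measure the spread between these samples. For the 3 libraries titled as C4-2 with vehicle, another label names the line as LNCaP. They were grouped by title, and KLK3 (prostate-specific antigen) lay at 21.6 ± 2.88 CPM (read pairs scaled to a common library size) in them against 345 ± 13.9 CPM in LNCaP with vehicle (SD, n = 3).

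Glycosylation runs through the endoplasmic reticulum and the Golgi, where each enzyme acts on the product of another. The hexosamine route turns glucose into UDP-GlcNAc, the donor for N-glycans, for branches of O-glycans and for O-GlcNAc on nuclear proteins. Mucin-type O-glycans begin with GalNAc on serine or threonine. When ST6GALNAC1 sialylates that first sugar it makes the sialyl-Tn antigen, a truncated glycan known from carcinomas, while branching by GCNT1 gives the core 2 structures that can be extended. In the prostate, androgens are steroid hormones that govern the growth and secretion of luminal cells.

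RefSeq promoter windows (GRCh38.p14) were found for 7 of the 10 genes, as 16 windows of 250 bases before a transcript start. The most upstream window is shown for 3 genes: UAP1 and PGM3 are consecutive steps of one route and rose together with R1881 in both lines, and GCNT2 holds the 1 match found to a steroid hormone response half-site. Capitals mark matches, on either strand, to GGGCGG (the GC box), CCAAT or TGTTCT (the half-site). The RefSeq windows lie at chr1:162561281-162561530 (plus strand) for UAP1, chr6:83193901-83194150 (minus strand) for PGM3 and chr6:10521101-10521350 (plus strand) for GCNT2, and all are written 5′ to 3′ in the direction of the gene.
UAP1: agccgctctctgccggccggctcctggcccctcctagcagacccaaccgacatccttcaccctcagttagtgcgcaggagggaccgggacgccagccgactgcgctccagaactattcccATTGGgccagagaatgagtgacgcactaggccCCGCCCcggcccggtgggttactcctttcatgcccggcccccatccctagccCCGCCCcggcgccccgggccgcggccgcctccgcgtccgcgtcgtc
PGM3: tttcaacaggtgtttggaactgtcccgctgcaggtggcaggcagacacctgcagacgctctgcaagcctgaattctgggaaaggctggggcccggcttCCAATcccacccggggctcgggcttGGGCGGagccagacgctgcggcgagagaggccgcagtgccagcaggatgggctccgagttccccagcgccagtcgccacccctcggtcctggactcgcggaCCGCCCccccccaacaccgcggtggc
GCNT2: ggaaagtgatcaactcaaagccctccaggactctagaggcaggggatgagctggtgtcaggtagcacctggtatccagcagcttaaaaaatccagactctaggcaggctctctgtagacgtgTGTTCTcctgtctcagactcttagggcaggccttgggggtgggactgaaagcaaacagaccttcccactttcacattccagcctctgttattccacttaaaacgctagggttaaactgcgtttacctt

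The windows of UAP1 and PGM3 were GC-rich, at 71.2% and 68.8% G or C with 26 and 19 CpG, against a median of 58.0% and 11 CpG over all 35116 windows. The GCNT2 window had 50.4% G or C and 3 CpG. The full palindrome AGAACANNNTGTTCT matched 0 of the 16 windows, and 0.00285% of all windows. The half-site TGTTCT matched 1 of the 16 and 12.4% of all. GGGCGG matched 9 of the 16, in UAP1, PGM3, GALNT7, GCNT1 and ST6GAL1, and 42.6% of all. CCAAT matched 6 of the 16, in UAP1, PGM3, EDEM3, GCNT1 and GCNT2, and 32.0% of all. These are matches of letters in short windows, and they say nothing of binding elsewhere.

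Total counts per library ran from 3182604 to 20154243 read pairs with a median of 18117641, and the lowest belonged to a C4-2 vehicle library (replicate 3). By a chi-square of counts between replicates, averaged over genes, that library stood apart from its group (18.6 and 18.3 against 5.41 for the other pair), as did replicate 1 of C4-2 with knockdown (17.4 and 15.3 against 3.57). Without the first, all 10 genes still rose with R1881 in C4-2, with log2FC from 0.45 to 3.16. Without the second, the knockdown log2FC in C4-2 was 0.96 for ST6GALNAC1, 0.89 for PGM3, 0.47 for UAP1 and 0.40 for GALNT7, all past the test, and -0.49 for ST6GAL1, which did not pass. All 10 genes had at least 4 read pairs in every library and passed the filter on low counts in every comparison. The siRNA targets fell with knockdown, KDM1A to log2FC of -1.05 (LNCaP) and -3.12 (C4-2) and KDM7A to -0.93 and -2.51 in the same order, so that the depletion was shallower in LNCaP. KLK3 rose with R1881 in both lines (log2FC 3.70 for LNCaP, 4.16 for C4-2). With the knockdown KLK3 rose by 0.27 in LNCaP (adjusted p = 0.00965), and its log2FC in C4-2 was -0.28 (adjusted p = 0.0599). Of other androgen-responsive genes, KLK2 rose with knockdown in both lines. FKBP5 fell in both lines and STEAP4 in LNCaP (log2FC in LNCaP -0.295 and -0.42). KLK3 thus does not stand for such genes as a group. The luminal markers FOXA1, HOXB13, KRT8, KRT18 and FOLH1 were present in every library, at 137 CPM (KRT18) or more. The basal markers KRT5 and TP63 were at 0 in 14 and 15 libraries, and KRT14 rose with R1881 in both lines but reached at most 1.59 CPM. Among stromal markers COL1A1 lay at 6.96 to 36.3 CPM and PDGFRB at 0.350 to 3.38 CPM, with DCN and COL1A2 at 0 in 14 libraries each. The 4 stromal markers summed in LNCaP to 16.6 to 17.95 CPM with vehicle, 7.54 to 11.9 CPM with R1881 and 10.6 to 13.6 CPM with knockdown. In C4-2 they summed to 30.6 to 39.3 CPM with vehicle, 18.5 to 25.7 CPM with R1881 and 28.98 to 38.3 CPM with knockdown. The 3 leukocyte markers summed to 2.04 to 3.52 CPM in C4-2 with vehicle and to at most 0.734 CPM in every other group, mostly as PTPRC, with CD3E at 0 in 15 libraries. With R1881 KRT8 and KRT18 rose while HOXB13 and FOLH1 fell in both lines, and FOXA1 fell in C4-2. With knockdown HOXB13 rose in both lines. FOXA1 and FOLH1 also rose with knockdown in C4-2, where KRT8 and KRT18 passed in neither direction. The luminal and androgen-responsive lists are not reported in full here, so these genes do not give the balance of either list. The part of these marker levels in the results was not tested.

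**Figure D1:**
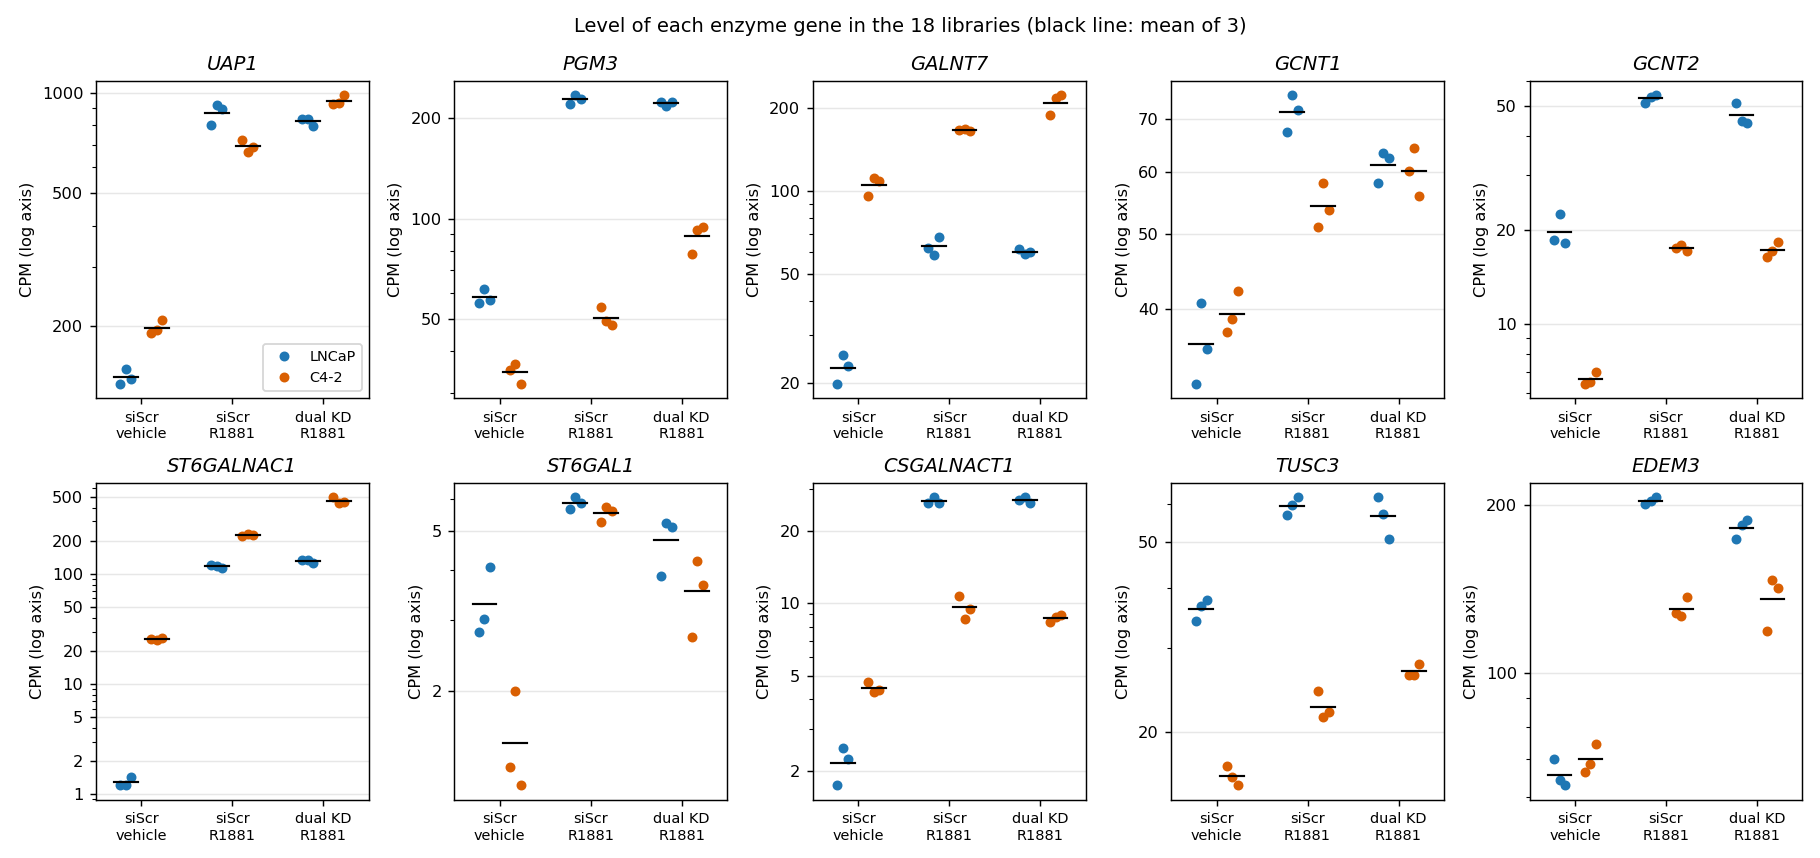
Level of each of the 10 genes in the 18 libraries, in CPM on a log axis. Each point is a library, black lines are means of 3, and blue and orange mark LNCaP and C4-2. In both lines the 3 siScr libraries with R1881 lie above the 3 with vehicle for every gene.

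All 10 genes rose with R1881 in both lines (edgeR quasi-likelihood test, Benjamini-Hochberg adjusted p under 0.05). Among all genes tested, 23.5% rose and 23.2% fell in LNCaP, and 17.1% rose and 15.7% fell in C4-2. With a log2FC of at least 1 as well, the rule used for differential expression, 7 of the 10 were up-regulated in LNCaP (5.68% of all genes) and 5 of the 10 in C4-2 (4.29% of all genes). The median log2FC of the 10 was 1.53 in LNCaP and 1.00 in C4-2, beside -0.04 and -0.02 over all genes. For each of the 10, the 3 libraries with R1881 lay above the 3 with vehicle in both lines, which held for 27.2% of all genes in LNCaP and 24.6% in C4-2. The genes were proposed as androgen-regulated and chosen with earlier results of these data known. Their direction and their shares beside all genes are therefore not independent evidence. In bulk libraries, fewer cells that express a gene and less RNA per cell cannot be told apart.

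**Figure D2:**
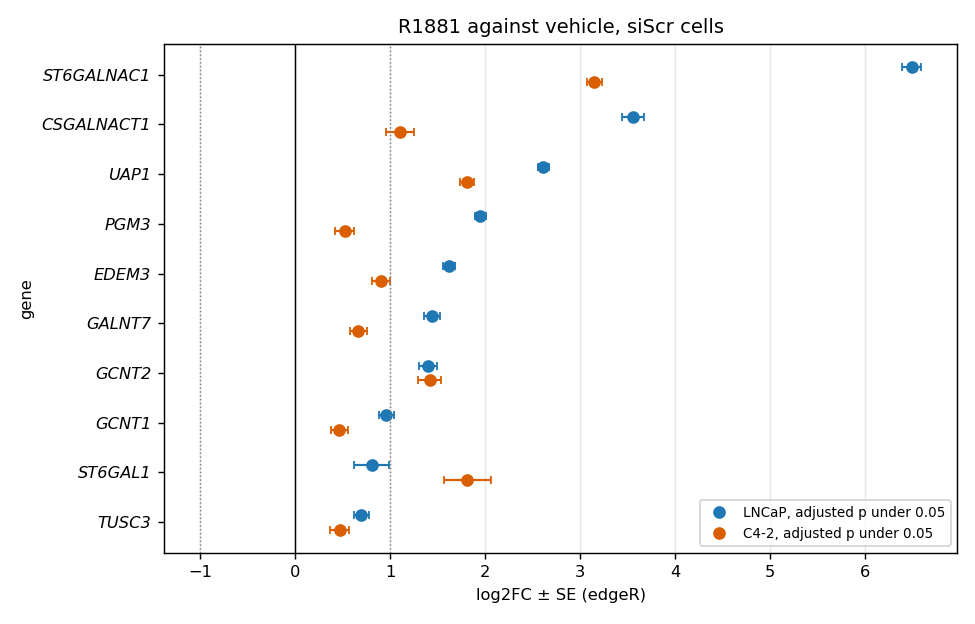
Change with R1881 against vehicle in siScr cells, as log2FC with its SE, for LNCaP (blue) and C4-2 (orange). Dotted lines mark a log2FC of 1 in either direction. All 20 values lie above 0, from 0.47 to 6.49, and ST6GALNAC1 lies farthest right in both lines.

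With the dual knockdown, compared with siScr under R1881, 1 of the 10 rose in LNCaP (ST6GALNAC1) and 0 fell, where 8.27% of all genes rose and 5.89% fell. None of the 10 was differentially expressed there by edgeR or by DESeq2, beside 0.286% of all genes by edgeR. By unadjusted p under 0.05, 3 of the 10 differed in LNCaP (ST6GALNAC1, GCNT1 and EDEM3). DESeq2 passed 2 of these, both lower with knockdown (EDEM3, adjusted p = 0.0355, and GCNT1, adjusted p = 0.0478), and did not pass ST6GALNAC1 (adjusted p = 0.053). In C4-2, 4 of the 10 rose (ST6GALNAC1, PGM3, UAP1 and GALNT7) and 1 fell (ST6GAL1), where 12.7% of all genes rose and 10.8% fell. One of them, ST6GALNAC1, also reached a log2FC of 1, as did 3.94% of all genes in either direction. The knockdown was compared with the same siScr libraries with R1881 that entered the androgen comparison, so both share those libraries.

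**Figure D3:**
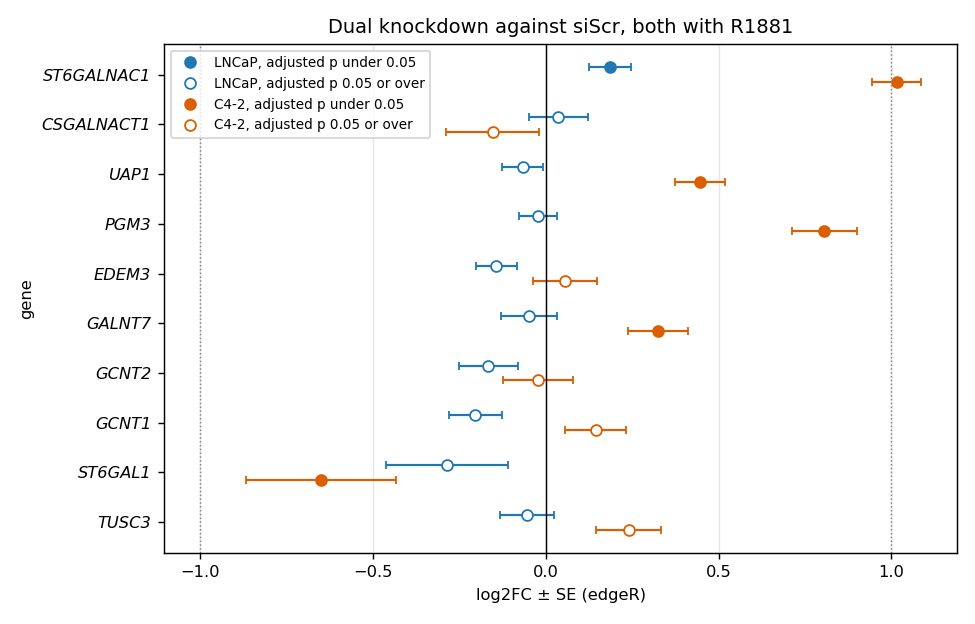
Change with dual knockdown of KDM1A and KDM7A against siScr, both with R1881, as log2FC with its SE. Filled points passed an adjusted p of 0.05 and open points did not. In LNCaP all values lie between -0.28 and 0.19, and in C4-2 they run from -0.65 for ST6GAL1 to 1.02 for ST6GALNAC1.

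UAP1 makes UDP-GlcNAc from UTP and GlcNAc-1-phosphate, the last step of the hexosamine route (ENSG00000117143, chromosome 1, 162561506 to 162599842, plus strand). In LNCaP it lay at 134, 149 and 139 CPM with vehicle and at 803, 921.1 and 894 CPM with R1881. This was a 6.12-fold rise (log2FC 2.61, SE 0.0624, adjusted p = 1.38e-15). In C4-2 it lay at 190.5, 194 and 209 CPM with vehicle and at 724, 666 and 688 CPM with R1881, a 3.50-fold rise (log2FC 1.81, SE 0.0749, adjusted p = 1.49e-10). The order of the lines therefore turned: C4-2 was the higher with vehicle and LNCaP the higher with R1881, with no overlap of libraries in either condition. With dual knockdown the LNCaP libraries lay at 834, 836 and 796 CPM, overlapping siScr (log2FC -0.07, adjusted p = 0.491). The C4-2 libraries rose to 926, 931 and 984 CPM, above every siScr library (log2FC 0.45, SE 0.0716, adjusted p = 0.000501).

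PGM3 converts GlcNAc-6-phosphate to GlcNAc-1-phosphate, the substrate of UAP1 (ENSG00000013375, chromosome 6, 83161150 to 83193936, minus strand). In LNCaP it rose from 56.0, 61.4 and 57.2 CPM with vehicle to 221, 234 and 228 CPM with R1881, a 3.86-fold rise (log2FC 1.95, SE 0.0582, adjusted p = 2.68e-14). In C4-2 the rise was smaller, from 35.3, 36.8 and 32.0 CPM to 54.3, 49.3 and 47.9 CPM (log2FC 0.52, SE 0.0994, adjusted p = 0.001). The C4-2 libraries with R1881 thus lay below the LNCaP libraries with vehicle. Knockdown left LNCaP at 224, 217 and 223 CPM, overlapping siScr (log2FC -0.02, adjusted p = 0.842). In C4-2 it raised PGM3 to 78.5, 92.6 and 94.6 CPM, a log2FC of 0.81 (SE 0.0938, adjusted p = 3.94e-05). PGM3 shares 1087 bases, or 14.8% of its exons, with DOP1A on the opposite strand, and counting did not use strand. By default a pair that overlaps both genes is left uncounted, so PGM3 pairs there can be lost. DOP1A fell by 0.61 with R1881 in LNCaP (adjusted p = 3.06e-05). It did not pass the test in the other 3 comparisons within a line (log2FC -0.24 to -0.12). The part of the overlap in the PGM3 values was not tested.

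The steps before PGM3 and UAP1 are named here for their place in the route, after their values were seen. GFPT1, which catalyses the first and rate-limiting step, had log2FC with R1881 of 0.25 and 0.37 in LNCaP and C4-2, both rises (adjusted p = 0.00246 and 0.00775). GNPNAT1, the acetyltransferase between them, rose by 0.94 and 0.57 (adjusted p = 1.81e-08 and 0.000344, LNCaP and C4-2). With knockdown in C4-2, GFPT1 rose by 0.37 (adjusted p = 0.00904), and GNPNAT1 had a log2FC of 0.20 that did not pass (adjusted p = 0.142). In LNCaP neither passed, with log2FC of -0.11 and -0.17.

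GALNT7 adds GalNAc to peptides that already carry one, and so extends early O-glycan clusters (ENSG00000109586, chromosome 4, 173168753 to 173323967, plus strand). LNCaP libraries held 19.95, 25.4 and 23.1 CPM with vehicle and 62.1, 58.8 and 68.3 CPM with R1881, a 2.71-fold rise (log2FC 1.44, SE 0.0857, adjusted p = 3.37e-10). C4-2 libraries were already higher, at 96.0, 111 and 109 CPM with vehicle, and rose to 168, 169 and 165 CPM (log2FC 0.67, SE 0.0895, adjusted p = 5.14e-05). Every C4-2 library with vehicle thus lay above every LNCaP library with R1881. Knockdown libraries of LNCaP lay at 61.5, 59.3 and 60.0 CPM, overlapping siScr (log2FC -0.05, adjusted p = 0.746). Those of C4-2 lay at 189, 218 and 223 CPM, all above siScr (log2FC 0.32, SE 0.0868, adjusted p = 0.0145). That rise did not pass without replicate 3 of either group (adjusted p = 0.062 and 0.0649) or without knockdown replicate 2 (0.0539). GALNT7 shares 98 bases of exon with the opposite-strand transcript GALNT7-DT, whose mean was at most 2.13 CPM in the groups compared.

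GCNT1 makes the core 2 branch of O-glycans (ENSG00000187210, chromosome 9, 76419850 to 76507416, plus strand). It rose in LNCaP from 32.1, 40.7 and 35.6 CPM with vehicle to 67.5, 75.1 and 72.1 CPM with R1881 (log2FC 0.96, SE 0.0798, adjusted p = 3.08e-08), and without vehicle replicate 2 the log2FC was 1.07. In C4-2 it rose from 37.4, 38.8 and 42.2 CPM to 51.0, 58.0 and 53.5 CPM (log2FC 0.47, SE 0.0924, adjusted p = 0.00134). The lines overlapped with vehicle and were apart with R1881. Knockdown values were 58.0, 63.4 and 62.4 CPM in LNCaP, below every siScr library but short of the threshold (log2FC -0.20, adjusted p = 0.0868). The lower level passed in 3 of 19 alternatives, by DESeq2 (adjusted p = 0.0478), without vehicle replicate 2 (0.0405) and with only these groups fitted (0.0384). With a GC trend removed the log2FC was -0.049 (adjusted p = 0.691). In C4-2 they were 60.1, 64.3 and 55.8 CPM, overlapping siScr (log2FC 0.14, adjusted p = 0.266).

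GCNT2, the I-branching enzyme that turns linear poly-N-acetyllactosamine into branched chains (ENSG00000111846, chromosome 6, 10492223 to 10629368, plus strand), rose by nearly the same factor in both lines. LNCaP libraries went from 18.6, 22.5 and 18.1 CPM to 51.3, 53.5 and 54.0 CPM, a 2.64-fold rise (log2FC 1.40, SE 0.0916, adjusted p = 1.24e-09). C4-2 libraries went from 6.42, 6.47 and 6.99 CPM to 17.4, 17.8 and 17.1 CPM, a 2.67-fold rise (log2FC 1.42, SE 0.117, adjusted p = 3.38e-07). The C4-2 libraries with R1881 lay below every LNCaP library with vehicle. Knockdown gave 51.1, 44.7 and 44.0 CPM in LNCaP, just below siScr but not past the threshold (log2FC -0.17, adjusted p = 0.214), and 16.3, 17.1 and 18.3 CPM in C4-2 (log2FC -0.02, adjusted p = 0.906).

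ST6GALNAC1, the sialyl-Tn synthase (ENSG00000070526, chromosome 17, 76624761 to 76643838, minus strand), had the largest change of the 10 in both lines. In LNCaP it was close to the floor with vehicle, at 1.23, 1.21 and 1.43 CPM from 14, 26 and 26 read pairs. With R1881 it reached 121, 118 and 113 CPM, an 89.7-fold rise (log2FC 6.49, SE 0.102, adjusted p = 1.51e-17). In C4-2 it was already present with vehicle, at 25.8, 24.9 and 26.2 CPM, and reached 222, 231 and 228 CPM, an 8.87-fold rise (log2FC 3.15, SE 0.0822, adjusted p = 2.41e-12). The vehicle level of C4-2 thus lay between the LNCaP levels without and with androgen.

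With dual knockdown in C4-2, ST6GALNAC1 rose further, to 499, 438 and 447 CPM, a 2.02-fold rise over siScr (log2FC 1.02, SE 0.0709, adjusted p = 6.97e-07). These 3 libraries held its highest levels of all 18. The log2FC stayed close to the threshold of 1. It was 0.96 without knockdown replicate 1 and 0.997 without siScr R1881 replicate 1. With only these groups fitted it was 0.99, and with libraries thinned to equal depth 0.98. The adjusted p was at most 3.63e-05 in every alternative. In LNCaP the knockdown libraries lay at 135, 134 and 127 CPM, just above the siScr range (log2FC 0.19, SE 0.0609, adjusted p = 0.04998). That rise passed the test in 4 of 19 alternatives, whose adjusted p ran from 0.037 to 0.212. It did not pass without any one of the 6 R1881 libraries other than siScr replicate 1, nor without vehicle replicate 1 or 3.

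ST6GAL1, which caps N-glycans with alpha-2,6 sialic acid (ENSG00000073849, chromosome 3, 186930485 to 187078553, plus strand), was the lowest of the 10 in 5 of the 6 groups per kilobase of exon and was counted from 4 to 104 read pairs per library. In LNCaP it rose from 2.80, 3.02 and 4.06 CPM to 5.69, 6.08 and 5.86 CPM (log2FC 0.81, SE 0.184, adjusted p = 0.00176). In C4-2 it rose from 1.29, 2.00 and 1.17 CPM to 5.28, 5.73 and 5.63 CPM, a 3.52-fold rise (log2FC 1.81, SE 0.251, adjusted p = 6.67e-05). It was the only one of the 10 whose rise had a larger log2FC in C4-2 by a difference that passed the test. With knockdown it fell in C4-2, to 2.73, 4.23 and 3.68 CPM, all below siScr (log2FC -0.65, SE 0.218, adjusted p = 0.0431). The fall passed in 11 of 19 alternatives and not by DESeq2 (adjusted p = 0.081), and without knockdown replicate 1 the log2FC was -0.49 (adjusted p = 0.131). It also failed without knockdown replicate 3 or without any one siScr R1881 library (adjusted p = 0.0864 to 0.12). In LNCaP the knockdown values of 3.87, 5.24 and 5.12 CPM were likewise below every siScr library but did not pass (log2FC -0.28, adjusted p = 0.31).

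CSGALNACT1 adds the first GalNAc of a chondroitin sulfate chain (ENSG00000147408, chromosome 8, 19404161 to 19758029, minus strand). LNCaP libraries held 1.75, 2.505 and 2.25 CPM with vehicle and 26.2, 27.6 and 26.2 CPM with R1881, an 11.8-fold rise that was the second largest of the 10 there (log2FC 3.56, SE 0.115, adjusted p = 7.68e-14). C4-2 libraries began higher, at 4.71, 4.30 and 4.37 CPM, and ended lower, at 10.8, 8.66 and 9.49 CPM (log2FC 1.10, SE 0.149, adjusted p = 5.3e-05). As with UAP1, the order of the lines was opposite with and without androgen. After removal of a trend with GC content the log2FC in C4-2 was 0.995, just under 1. Knockdown values were 27.1, 27.7 and 26.2 CPM in LNCaP (log2FC 0.04, adjusted p = 0.822) and 8.35, 8.78 and 8.97 CPM in C4-2 (log2FC -0.15, adjusted p = 0.456). Its paralog CSGALNACT2, chosen after its values were seen, rose with R1881 by 0.32 and 0.51 (adjusted p = 0.00933 and 0.00283, LNCaP and C4-2). With knockdown CSGALNACT2 rose by 0.73 in C4-2 (adjusted p = 0.000201) and did not pass in LNCaP (log2FC 0.03, adjusted p = 0.859).

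TUSC3 is an oxidoreductase subunit of the oligosaccharyltransferase, the complex that transfers the N-glycan precursor to new proteins (ENSG00000104723, chromosome 8, 15417215 to 15766649, plus strand). It had the smallest rise in LNCaP, from 34.1, 36.8 and 37.7 CPM to 57.0, 59.8 and 62.1 CPM (log2FC 0.70, SE 0.0797, adjusted p = 1.58e-06). In C4-2 it rose from 17.0, 16.0 and 15.4 CPM to 24.3, 21.5 and 22.0 CPM (log2FC 0.47, SE 0.1, adjusted p = 0.00236). All 9 C4-2 libraries lay below all 9 LNCaP libraries. Knockdown gave 62.2, 57.2 and 50.9 CPM in LNCaP, around the siScr values (log2FC -0.05, adjusted p = 0.702), and 26.3, 26.3 and 27.7 CPM in C4-2, above siScr but short of the threshold (log2FC 0.24, adjusted p = 0.0793). The latter passed in 3 of 19 alternatives, with a GC trend removed (adjusted p = 0.0327), with the replicate block as well (0.0177) and in a fit of all 18 libraries (0.0346). MAGT1, the paralog that takes the same place in the complex, was likewise chosen after its values were seen. It rose with R1881 in LNCaP (log2FC 0.67, adjusted p = 5.89e-08) and in C4-2 (log2FC 0.27, adjusted p = 0.0189). With knockdown MAGT1 rose in C4-2 (log2FC 0.24, adjusted p = 0.0464) and did not pass in LNCaP (log2FC -0.005, adjusted p = 0.966).

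EDEM3 trims mannose from glycoproteins bound for degradation (ENSG00000116406, chromosome 1, 184690231 to 184754913, minus strand). LNCaP libraries rose from 70.0, 64.2 and 62.8 CPM to 201, 204 and 207 CPM, a 3.07-fold rise (log2FC 1.62, SE 0.0624, adjusted p = 8.81e-13). C4-2 libraries started at overlapping levels, 66.5, 68.7 and 74.6 CPM, and rose to 128, 126 and 137 CPM (log2FC 0.91, SE 0.0962, adjusted p = 4.92e-06). Knockdown values were 174, 185 and 188 CPM in LNCaP, below siScr but not past the threshold (log2FC -0.14, adjusted p = 0.12), and 119, 147 and 142 CPM in C4-2, overlapping siScr (log2FC 0.06, adjusted p = 0.714). The LNCaP value passed by DESeq2 (log2FC -0.16, adjusted p = 0.0355) and was 0.012 with a GC trend removed.

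On the log2 scale, the androgen response itself differed between the lines for 8 of the 10 genes. This was tested by the interaction of line and R1881 in all 18 libraries. The log2FC was lower in C4-2 for 7 genes, where 7.95% of all genes had a lower response, and higher for ST6GAL1, where 6.05% of all had a higher one. In mean CPM, ST6GALNAC1 gained more in C4-2 (25.7 to 227) than in LNCaP (1.29 to 117). GALNT7 did too (106 to 167 against 22.8 to 63.1), and the others of the 7 gained less. Of the 7, 3 differed by a log2 of at least 1 (2.33% of all genes): ST6GALNAC1 by -3.35 (SE 0.132, adjusted p = 2.18e-13), CSGALNACT1 by -2.48 (SE 0.178, adjusted p = 2.29e-09) and PGM3 by -1.44 (SE 0.108, adjusted p = 4.16e-09). UAP1, GALNT7, EDEM3 and GCNT1 differed by -0.82 to -0.50, with adjusted p up to 0.00688, and GCNT1 did not pass at thinned depth (adjusted p = 0.126). ST6GAL1 differed by 0.99 (SE 0.307, adjusted p = 0.0337), which passed in 17 of 26 alternatives. Its difference was 0.80 without replicate 1 of C4-2 with vehicle (adjusted p = 0.147) and 0.80 without replicate 3 of LNCaP with vehicle (adjusted p = 0.106), and it also failed without any one LNCaP siScr R1881 library or without C4-2 siScr R1881 replicate 2 or 3 (adjusted p = 0.0508 to 0.0699). For GCNT2 the difference was 0.00 (SE 0.14, adjusted p = 1), and for TUSC3 it was -0.25 (SE 0.121, adjusted p = 0.195).

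The response to the dual knockdown differed between the lines for 5 of the 10 genes, and each was more positive in C4-2, as for 6.97% of all genes. PGM3 differed by 0.85 (SE 0.102, adjusted p = 1.54e-05), ST6GALNAC1 by 0.85 (SE 0.0856, adjusted p = 1.82e-06) and UAP1 by 0.54 (SE 0.0886, adjusted p = 0.000446), and these 3 passed in all 26 alternatives. GALNT7 differed by 0.39 (adjusted p = 0.0309) and GCNT1 by 0.37 (adjusted p = 0.0445), and these passed in 13 and 10 of 26 alternatives, with adjusted p up to 0.127 and 0.461. Leaving out 1 library ended the call for GALNT7 in 10 of 18 cases (LNCaP siScr R1881 replicates 1 and 3, any LNCaP knockdown library, any C4-2 siScr R1881 library, and C4-2 knockdown replicates 2 and 3). For GCNT1 it did so in 12 of 18 (LNCaP vehicle replicate 3, LNCaP siScr R1881 replicates 2 and 3, any LNCaP knockdown library, C4-2 vehicle replicates 1 and 2, C4-2 siScr R1881 replicates 1 and 3, and C4-2 knockdown replicates 2 and 3). None of the 10 differed by a log2 of 1 or more by edgeR or by DESeq2, beside 1.99% of all genes, and 7 had an unadjusted p under 0.05. KDM1A and KDM7A themselves fell further in C4-2 than in LNCaP, and the part of that unequal depletion in these differences was not tested.

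Between the lines with vehicle, 3 of the 10 genes were higher in C4-2 with a log2FC of at least 1 and 3 were lower, where 11.1% of all genes were higher and 13.1% lower. ST6GALNAC1 was 19.7-fold higher (log2FC 4.30, SE 0.11, adjusted p = 4.26e-18), GALNT7 4.57-fold higher (2.19, adjusted p = 1.09e-14) and CSGALNACT1 2.02-fold higher (1.01, adjusted p = 3.92e-06). GCNT2 was 3.03-fold lower, TUSC3 2.22-fold lower and ST6GAL1 2.10-fold lower, with adjusted p of 4.06e-11, 4.36e-10 and 0.000578. CSGALNACT1 and ST6GAL1 fell under a log2FC of 1 without single vehicle libraries: CSGALNACT1 was 0.90 without LNCaP replicate 1 and 0.96 without C4-2 replicate 1, and ST6GAL1 was -0.88 without LNCaP replicate 3 or C4-2 replicate 1. TUSC3 was at -0.90 after removal of a trend with GC content. With R1881, 1 of the 10 was higher in C4-2 (GALNT7, 2.65-fold) and 4 were lower (PGM3, GCNT2, CSGALNACT1 and TUSC3), where 10.8% of all genes were higher and 13.0% lower. PGM3 was 4.51-fold lower (log2FC -2.17, SE 0.0749, adjusted p = 5.31e-16). ST6GALNAC1 remained higher in C4-2 by a log2FC of 0.95 (adjusted p = 1.76e-11).

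Per kilobase of exon, UAP1 was the highest of the 10 in every group, from 40.9 ± 2.18 CPM per kb in LNCaP with vehicle to 275 ± 9.40 CPM per kb in C4-2 with knockdown (SD, n = 3). In LNCaP with vehicle it was followed by EDEM3 (8.42 ± 0.486) and PGM3 (7.94 ± 0.383), which overlapped between libraries. ST6GALNAC1, ST6GAL1 and CSGALNACT1 were the lowest there, at 0.373, 0.360 and 0.330 CPM per kb, and could not be ordered beyond their spread. With R1881 ST6GALNAC1 left these lowest places for the second, at 34.1 ± 1.32 CPM per kb, apart from PGM3 at 31.0 ± 0.891. The length used was that of all exons. Pairs in the 14.8% of PGM3 exons shared with DOP1A can go uncounted, so its level per kb may be too low. The place of PGM3 in these orders, also below ST6GALNAC1, is therefore uncertain. TUSC3 (11.5 ± 0.494) and GCNT1 (11.1 ± 0.594) overlapped. In C4-2 with vehicle GALNT7 was second, at 15.4 ± 1.21 CPM per kb, and GCNT2 (0.732 ± 0.0350) overlapped CSGALNACT1 (0.678 ± 0.0336). In C4-2 with R1881 and with knockdown no neighbours in the order overlapped, and ST6GALNAC1 was second in both, at 65.8 ± 1.37 and 134 ± 9.57 CPM per kb.

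The other genes of the pathways were read from 8 lists that hold 127 genes beside these 10, of which 103 were tested in each line. With R1881, 42 of the 103 rose and 18 fell in LNCaP (40.8% and 17.5%, beside 23.5% and 23.2% of all genes), and 27 rose and 16 fell in C4-2 (26.2% and 15.5%, beside 17.1% and 15.7%). Their median log2FC was 0.10 and 0.01. With knockdown, 15 rose and 4 fell in LNCaP (14.6% and 3.88%, beside 8.27% and 5.89% of all genes), and 19 rose and 15 fell in C4-2 (18.4% and 14.6%, beside 12.7% and 10.8%). Of these 103 genes, 11 were differentially expressed with R1881 in LNCaP (10.7%, beside 12.3% of all genes) and 6 in C4-2 (5.83%, beside 9.07%). With knockdown 0 were in LNCaP (beside 0.286%) and 2 in C4-2 (1.94%, beside 3.94%).

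**Figure D4:**
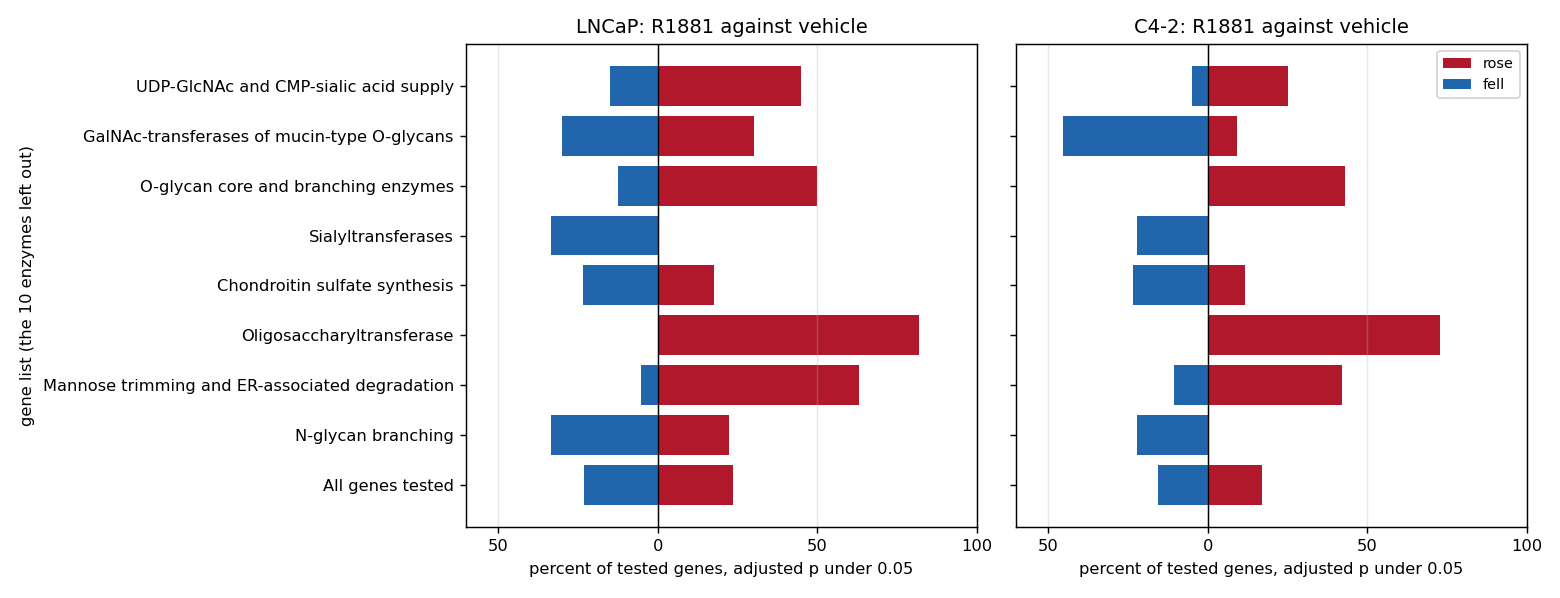
Share of tested genes of each pathway list that rose (red, to the right) or fell (blue, to the left) with R1881 at an adjusted p under 0.05, the 10 enzymes left out. The lowest bar gives all genes tested. The oligosaccharyltransferase reached the largest share of rises in both lines, and no other sialyltransferase rose.

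Among 20 genes of nucleotide sugar supply, 9 rose and 3 fell with R1881 in LNCaP, and 5 rose and 1 fell in C4-2. NANS and CMAS, which make sialic acid and its CMP donor, rose in LNCaP with a log2FC of 1.19 (adjusted p = 5.78e-10) and 1.14 (adjusted p = 1.81e-10). NANS went from 38.4 ± 3.02 to 88.9 ± 1.49 CPM and CMAS from 57.3 ± 1.47 to 128 ± 9.38 CPM (SD, n = 3). Of 9 other sialyltransferases tested, 0 rose and 3 fell in LNCaP, and 0 rose and 2 fell in C4-2. The polysialyltransferase ST8SIA4 fell in LNCaP from 4.39 ± 0.195 to 0.389 ± 0.0476 CPM (log2FC -3.50, adjusted p = 3.77e-08). ST3GAL5, which makes the ganglioside GM3, fell by 1.08 on the log2 scale with knockdown in C4-2 (adjusted p = 2.93e-05).

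Of 10 other GalNAc-transferases tested in LNCaP, 3 rose and 3 fell with R1881, and of 11 in C4-2, 1 rose and 5 fell. GALNT10 fell in LNCaP from 178 ± 4.90 to 75.4 ± 2.02 CPM (log2FC -1.26, adjusted p = 1.2e-11), and GALNT14 fell in C4-2 from 7.06 ± 1.46 to 2.82 ± 0.353 CPM (log2FC -1.27, adjusted p = 0.000289). The 2 that rose past a log2FC of 1, GALNT12 in LNCaP (1.51, adjusted p = 0.0415) and GALNT16 in C4-2 (2.07, adjusted p = 0.0121), stayed under 1 CPM. Of the O-glycan core and branching enzymes, 4 of 8 rose and 1 fell in LNCaP and 3 of 7 rose in C4-2. The 1 that fell, the core 3 synthase B3GNT6, went from 2.44 ± 0.688 to 0.0374 ± 0.0324 CPM in LNCaP (log2FC -5.72, adjusted p = 8.93e-07). C1GALT1C1, the chaperone of the core 1 synthase, rose by 0.72 and 0.40 (adjusted p = 2.75e-06 and 0.0199, LNCaP and C4-2). The synthase itself, C1GALT1, rose by 0.25 in LNCaP (adjusted p = 0.0471). Its log2FC of 0.22 in C4-2 did not pass (adjusted p = 0.318).

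Among 17 other genes of chondroitin sulfate synthesis, 3 rose and 4 fell with R1881 in LNCaP, and 2 rose and 4 fell in C4-2. DSEL, an epimerase-like protein of dermatan sulfate, fell in LNCaP from 356 ± 12.1 to 95.03 ± 3.86 CPM (log2FC -1.92, adjusted p = 5.21e-14), while the chain-polymerising factor CHPF rose by 1.02 (adjusted p = 2.17e-06). The sulfotransferases CHST15 and CHST3 fell in C4-2 (log2FC -1.58 and -1.53), and CHST3 rose by 1.19 with knockdown there (adjusted p = 1.51e-05). Of 11 other oligosaccharyltransferase subunits, 9 rose in LNCaP and 8 in C4-2, with 0 falls, none past a log2FC of 1 and medians of 0.43 and 0.28. Of 19 other genes of mannose trimming and degradation, 12 rose and 1 fell in LNCaP and 8 rose and 2 fell in C4-2. EDEM1, the paralog of EDEM3, rose in LNCaP by 1.15 (adjusted p = 1.45e-10), and the Golgi mannosidase MAN1A1 fell in both (log2FC -3.52 in LNCaP and -1.77 in C4-2). Of 9 genes of N-glycan branching, 2 rose and 3 fell in LNCaP, and 0 rose and 2 fell in C4-2.

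The genes most like each enzyme over the 6 group means, among 14026 named genes with a mean of at least 1 CPM, were found by the root mean square difference of log2 CPM after centring. They are given as a description over 6 groups of 3 libraries. For UAP1 these were MPC2 (0.114) and C1orf116 (0.164), for PGM3 UBE2J1 (0.179) and HMGCS1 (0.199), and for EDEM3 SCD (0.0853) and WASHC3 (0.0888). For GCNT1 they were ACACA (0.0653) and C1GALT1C1 (0.0768), for GCNT2 GPR158 (0.132) and CTBP1-AS (0.146), and for GALNT7 ARG1 (0.183) and H1-2 (0.213). For TUSC3 they were CCNC (0.0965) and ERO1B (0.105), and for ST6GAL1 the mitochondrial tRNA genes MT-TL2 (0.113) and MT-TT (0.14). ST6GALNAC1, which had a range of 8.36 over the groups on the log2 scale, was nearest to SCIRT (0.401) and MOGAT2 (0.938), and CSGALNACT1 to HES6 (0.316) and PEX10 (0.37).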

How the data were processed

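The authors prepared poly(A) libraries, trimmed the reads with TrimGalore, aligned them to GRCh38 with STAR and deposited counts of read pairs per gene, made per the file headers with featureCounts 1.5.0-p1 on the Ensembl 83 annotation without strand or multi-mapping options. A pair overlapping genes on both strands is left uncounted by default. The STAR version was not given in the sources used here. Symbols, places and GC content came from GENCODE 29 (GRCh38) and sequences from RefSeq.

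Counts were analysed with edgeR 4.0.16 in R 4.3.3: filterByExpr (minimum count 10, total 15), TMM and 2-sided quasi-likelihood F-tests, with p-values adjusted by Benjamini-Hochberg over all genes tested (17162 in LNCaP, 16965 in C4-2, 18684 in all 18 libraries). The 9 libraries of a line were fitted together, and the lines were compared in all 18. Differential expression meant an adjusted p under 0.05 with a log2FC of at least 1 either way, and "rose" or "fell" the adjusted p alone. CPM used TMM-scaled library sizes. With 3 against 3 libraries an exact permutation test cannot go below p = 0.1, so none was used. Replicates differed by more than counting error (chi-square per gene 2.56 to 18.6 over 18 pairs). Test scripts were tested on simulated data. Other steps used Python 3.11.15, pandas 2.3.3 and matplotlib 3.10.9.

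The 10 genes, the lists and the tests were chosen with earlier results of these data known. Named besides the 10 were KDM1A, KDM7A, KLK3, up to 2 differentially expressed genes per list and line with the largest log2FC, the 2 genes of most like pattern, exceptions stated where they occur, and marker and reference genes behind small counts, chosen after their values were seen. A gene of the luminal and androgen-responsive lists is not reported here, so no counts over those lists are given.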

Additional observations from a re-analysis of the deposited data

Results flagged for a closer look

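The response of a gene to the same treatment differed between LNCaP and C4-2, by the interaction of line and treatment in all 18 libraries, in 13 cases. For R1881 the difference of log2FC (C4-2 minus LNCaP) was -3.35 for ST6GALNAC1, -2.48 for CSGALNACT1, -1.44 for PGM3, -0.82 for UAP1, -0.79 for GALNT7, -0.72 for EDEM3 and -0.50 for GCNT1, and 0.99 for ST6GAL1. For the dual knockdown it was 0.85 for ST6GALNAC1, 0.85 for PGM3, 0.54 for UAP1, 0.39 for GALNT7 and 0.37 for GCNT1. Knockdown of KDM1A and KDM7A was deeper in C4-2, and its part in the last 5 was not tested. Groups of 3 libraries are too small for a test of single libraries that stand apart.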

How the results depend on the processing

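Counts of the 10 genes past both thresholds moved by more than 1.5 times in few alternatives. With an adjusted p alone they were 10 for R1881 in C4-2, 1 and 5 for knockdown in LNCaP and C4-2, 8 and 5 for the R1881 and knockdown responses differing between lines, and 9 for C4-2 against LNCaP with R1881. For knockdown in C4-2 the count of 1 was 0 at thinned depth and 0 with only the groups compared, and 0 to 1 when single libraries were left out. Values that changed sign were all short of the threshold. In LNCaP with knockdown, removal of a GC trend gave 0.037 for UAP1, 0.012 for EDEM3, 0.10 for GALNT7, 0.13 for PGM3 and 0.10 for TUSC3, the same with the replicate block gave 0.037, 0.016, 0.11, 0.13 and 0.10, and thinning gave -0.0081 for CSGALNACT1. Thinning gave 0.070 for GCNT2 with knockdown in C4-2 and 0.14 for ST6GAL1 between the lines with R1881. The difference of the GCNT2 response to R1881 was -0.0045 without a filter, -0.025 thinned, -0.010 with the replicate block, -0.053 with the GC trend removed and -0.048 with both. EDEM3 between the lines with vehicle was -0.0037 with the replicate block. Left-out libraries gave ranges of -0.10 to 0.011 for GALNT7 and -0.13 to 0.019 for TUSC3 (knockdown, LNCaP), -0.075 to 0.021 for GCNT2 and -0.0075 to 0.15 for EDEM3 (knockdown, C4-2), and -0.11 to 0.057 for the GCNT2 difference. The cause was not tested. Correlations of same-numbered replicates ran from -0.14 to 0.25 in LNCaP and from -0.033 to 0.22 in C4-2, with 2 of 9 over 0.1 in each, so the samples were not treated as paired. Pairs of unlike number ran from -0.29 to 0.14 in LNCaP and from -0.18 to 0.16 in C4-2. As a hint from the data only, 4 of 9 libraries in LNCaP and 6 of 9 in C4-2 correlated best with their own number. The number of such matches to be had without pairing was not worked out. With the replicate block the count of the 10 past both thresholds was the same in all 8 comparisons. Among all genes, knockdown in LNCaP gave 49 differentially expressed, but 9 by DESeq2, 14 without the GC trend, 7 with the block as well and 14 to 73 with single libraries left out. Thinned to the smallest library, the all-gene counts fell from 1539 to 907 for R1881 in C4-2, from 669 to 346 for knockdown in C4-2, from 808 to 432 and from 371 to 158 for the responses to R1881 and knockdown differing between lines, and from 4530 to 2881 and from 4443 to 2699 between lines with vehicle and with R1881. Of 1800 alternative values of single genes, 1754 kept their direction and their side of the joint rule (adjusted p with log2FC), while 79 crossed the adjusted p of 0.05 alone, 66 of them out and 13 in. Besides those given with the genes, EDEM3 and GCNT1 between the lines with vehicle passed with the GC trend removed, with or without the block. GCNT1 between the lines with R1881 lost its pass with both (log2FC -0.168, adjusted p = 0.14, against -0.40). The knockdown responses of TUSC3 and EDEM3 differed between lines without LNCaP and C4-2 knockdown replicate 1, in that order. The fewest read pairs in any library were those of ST6GAL1, with 4 to 104 per library. The C4-2 vehicle library of 3182604 counts left all counts of the 10 unchanged when it was left out.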
